A study of Mus musculus with 2 samples.

Results

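The SLC25 family are mostly carriers of the inner mitochondrial membrane, and 44 of its genes were described here in mouse erythroleukemia (MEL) cells. They were chosen by symbol and gene class, with earlier results of these data known. The rule took protein-coding genes of the quantification tables whose symbol starts with Slc25a and a number. Slc25a28, Slc25a37 and Slc25a38 were left aside, which gives 44 of 21474 protein-coding genes in the tables. MEL is an immortalized line of leukemic mouse red cell precursors that turns toward red cell maturation under dimethyl sulfoxide (DMSO). Both libraries were made from polyA RNA after 5 days of culture in 2% DMSO, and they form the single group of the study. No untreated library was analysed here, so no value below is an effect of DMSO. The labels call the libraries biological replicates 1 and 2 but give both the same cell sample identifier, so separate cultures cannot be assumed, and the spread between them may be technical. Replicate 1 held 26149725 and replicate 2 held 14149299 estimated reads. Red cell markers were high in both libraries: the 9 listed genes had a median of 298.7 TPM, a level scaled for transcript length and library size, led by Hba-a1 with 14178 TPM, Hbb-bs with 10745 and Alas2 with 1870, while Klf1 (55.4 and 124.6 TPM in replicates 1 and 2) and Epor (34.7 and 136.4) were the lowest by mean; in replicate 2 the lowest was Tfrc with 65.2.

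SLC25 proteins share a fold of membrane helices repeated in tandem, with a conserved sequence signature in each repeat, and most exchange a solute of the matrix for one of the space outside the inner membrane. They feed the ATP synthase with ADP and phosphate, pass citrate, malate, aspartate and other intermediates between matrix and cytosol, and bring in cofactors that the matrix cannot make. In red cell precursors the matrix holds the first and the last steps of heme synthesis, which draw on glycine, succinyl-CoA and iron, and the carriers known for glycine and iron are the genes left aside.

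Of the 44 members, 31 (70.5%) reached 1 TPM in both libraries, against 45.5% of all protein-coding genes. A total of 18 members averaged 10 TPM or more, 13 lay between 1 and 10 TPM, 2 passed 1 TPM in 1 library only, and 11 stayed under 1 TPM in both. The median member stood at 5.74 TPM, 6.02 in replicate 1 and 5.34 in replicate 2, where the median protein-coding gene stood at 0.60 TPM. Among detected genes the order was the other way: the 31 members had a median of 12.4 TPM and the 9776 detected protein-coding genes 15.5 TPM. In RNA of a whole culture, fewer cells of a kind and less RNA per cell cannot be told apart.

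Together the members held 0.0851% ± 0.0134 (SD, n = 2) of all TPM, with 0.0756% in replicate 1 and 0.0947% in replicate 2. They took 0.121% of the estimated reads of replicate 1, with an exact 95% binomial interval from 0.120% to 0.123%. For replicate 2 the share was 0.156% and its interval ran from 0.154% to 0.158%. These intervals cover counting error only, and they did not overlap. The 5 highest members, Slc25a3, Slc25a23, Slc25a4, Slc25a39 and Slc25a5, held 57.5% ± 1.13 (SD, n = 2) of the family's TPM. Below Slc25a23 the order was loose: of 43 pairs of neighbours in the order of mean TPM, 39 had ranges that overlapped between them, and the 4 that did not were Slc25a3 over Slc25a23, Slc25a23 over Slc25a4, Slc25a51 over Slc25a17 and Slc25a43 over Slc25a33.

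**Figure D1:**
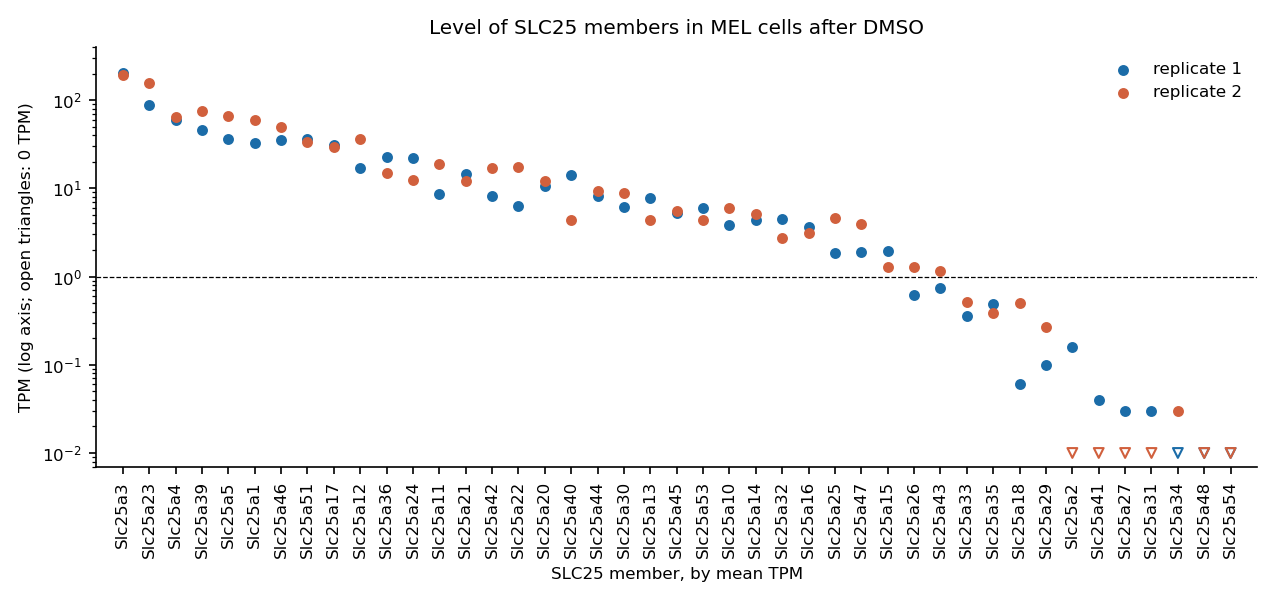
Level of 43 members in TPM on a log axis, ordered by mean, with replicate 1 in blue and replicate 2 in orange; open triangles stand for 0 TPM and the dashed line marks 1 TPM. Slc25a3 is the highest in both libraries, and 30 of those drawn lie above the line in both.

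Slc25a3, the phosphate carrier, brings the phosphate for ATP synthesis into the matrix and is also known to carry copper. It was the highest member, with 200.4 TPM in replicate 1 and 192.0 in replicate 2 (mean 196.2 ± 5.98, SD, n = 2). Its values lay above those of every other member in both libraries, and it ranked 402 among all protein-coding genes by mean TPM. The gene (chr10:91116574-91124059, minus strand, mm10) has a pair of alternative internal exons that are used in place of each other and both code for protein. The form with the first of them is known from heart and skeletal muscle, and the other form is found broadly.

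The exons are shown because the annotation holds coding transcripts with each of them. Both are read 5′ to 3′ on the minus strand from GENCODE M21 transcripts, and capitals mark bases that differ or have no partner in their alignment. The exon of transcript Slc25a3-206 lies at chr10:91122207-91122331 (125 bases), and that of Slc25a3-201 at chr10:91121922-91122043 (122 bases).
Exon in Slc25a3-206: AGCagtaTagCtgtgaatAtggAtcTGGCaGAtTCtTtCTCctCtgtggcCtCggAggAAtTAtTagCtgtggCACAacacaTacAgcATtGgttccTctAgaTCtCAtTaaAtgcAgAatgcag
Exon in Slc25a3-201: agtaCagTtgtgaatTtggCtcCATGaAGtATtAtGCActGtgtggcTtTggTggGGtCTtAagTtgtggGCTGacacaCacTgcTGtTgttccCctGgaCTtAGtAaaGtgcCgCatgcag
A total of 77 aligned bases were identical, 61.6% of the longer exon, so reads over the exons can be assigned to one or the other. The single transcript with the first exon held 0 estimated reads in both libraries. The 3 transcripts with the second held 3504.75 reads in replicate 1 and 2550.31 in replicate 2, counted over their whole length. Of these, coding Slc25a3-201 held 2507.21 and 1840.1, and the retained-intron transcript Slc25a3-207 held 997.54 and 710.21. A transcript was counted for an exon only if it shared the exon's 3′ end. Transcripts that read through the first exon into the intron after it were thus not counted for it. The muscle markers Acta1, Mb, Ckm and Myh1 averaged 0.29, 0.12, 0.11 and 0.08 TPM. The coding transcript with the muscle exon and the muscle markers were thus both near or at 0.

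The ADP/ATP carriers trade matrix ATP for cytosolic ADP. Slc25a4, the isoform known from heart and muscle, had 59.3 TPM in replicate 1 and 64.0 in replicate 2 (61.7 ± 3.28, SD, n = 2). Slc25a5, the isoform known from dividing cells, had 36.4 and 65.4 TPM (50.9 ± 20.5, SD, n = 2). In TPM Slc25a4 was the higher in replicate 1 and Slc25a5 in replicate 2, so their order turned between the libraries. On coding transcripts alone Slc25a4 was above in both, with 59.34 and 63.98 TPM against 32.61 and 63.65. In replicate 2 the pair hardly differed by either measure. Their proteins, translated from GENCODE M21, are 89.6% identical. Slc25a31, the isoform known from male germ cells and 71.0% identical to Slc25a5, had 1 read in replicate 1 and 0 in replicate 2. The germ cell markers Prm1, Prm2, Tnp1 and Ldhc had 0 reads in both libraries. Slc25a5 has 5 processed copies in the tables, which took 12.0 reads in replicate 1 and 1.03 in replicate 2 against 1011 and 1060 for the gene itself.

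The stretch before the start of Slc25a5 and of Slc25a31 is shown because close relatives at opposite ends of the level range differ little in the number of CpG pairs there. Both are 250 bases, plus strand, of RefSeq promoters on GRCm38.p6, at chrX:36795347-36795596 and chr3:40708621-40708870, with CpG in capitals.
Slc25a5: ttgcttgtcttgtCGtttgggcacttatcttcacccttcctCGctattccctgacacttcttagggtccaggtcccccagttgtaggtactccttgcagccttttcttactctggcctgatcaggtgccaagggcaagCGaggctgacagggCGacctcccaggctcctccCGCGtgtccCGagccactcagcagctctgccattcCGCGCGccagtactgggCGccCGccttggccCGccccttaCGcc
Slc25a31: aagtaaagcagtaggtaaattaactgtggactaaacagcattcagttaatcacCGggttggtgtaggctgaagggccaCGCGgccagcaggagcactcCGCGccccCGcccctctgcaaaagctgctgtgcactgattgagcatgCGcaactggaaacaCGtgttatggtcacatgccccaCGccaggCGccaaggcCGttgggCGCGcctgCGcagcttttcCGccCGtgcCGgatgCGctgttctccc
Slc25a5 has 14 CpG in this window and Slc25a31, almost without reads, has 18. Of the 44 members, 34 had a promoter in the RefSeq table, and where a gene has several starts the one listed first was taken. The 26 detected members had a median of 14 CpG and the 8 that were not detected a median of 10. Over all protein-coding genes the medians were 17 for the 7852 detected and 4 for the 8465 not detected. So 62.5% of the members not detected that have a promoter (5 of 8) had 10 or more CpG, against 27.9% of all genes that were not detected, and 65.4% of the detected members (17 of 26), against 79.2% of all detected genes. The E-box CACGTG was found in 17.6% of the 34 windows (6) on either strand and in 6.85% of all 16317 windows of that length. The ETS core CCGGAAG was found in 14.7% (5) against 9.52%, the GATA motif AGATAA in 5.88% (2) against 8.80%, and the CACCC box CCACCC in 32.4% (11) against 30.3%. None of these motifs contains another, and a match is letters only. The E-box and the ETS core contain CpG, and the windows were not matched for CpG or for detection. Detected genes made up 26 of the 34 member windows and 7852 of all 16317. The windows were chosen for description after the levels had been seen.

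The ATP-Mg/phosphate carriers are switched by cytosolic calcium and set the total of adenine nucleotides in the matrix. Slc25a23 was the second highest member of the family by TPM, with 87.0 TPM in replicate 1 and 154.6 in replicate 2 (120.8 ± 47.7, SD, n = 2). Slc25a24 had 22.2 and 12.4 TPM (17.3 ± 6.92), and Slc25a25 had 1.87 and 4.59 (3.23 ± 1.92). The 3 ranges did not overlap, so Slc25a23 led this group in both libraries. Slc25a25 shares 379 exon bases with Naif1 on the opposite strand, which had 188 and 192.8 reads against 104 and 135.2 for Slc25a25. Whether counting used strand is not stated, so reads in the shared part cannot be told apart. Slc25a41, a shorter relative without the calcium-binding part, had 1 read in replicate 1 and 0 in replicate 2. Much of the TPM of Slc25a23 came from a short transcript: 63.7% in replicate 1 and 72.2% in replicate 2 lay on a coding transcript of 736 bases that held 27.0% and 35.3% of the gene's reads. Scaled instead as CPM (reads scaled to library size) per kilobase of the longest coding transcript, Slc25a23 stood at 39.2 and 62.9 and Slc25a4 at 53.7 and 60.5, so their ranges overlapped and their order turned between the libraries.

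The pyrimidine nucleotide carriers supply the matrix with nucleotides for its own DNA and RNA. Slc25a36 had 22.5 TPM in replicate 1 and 14.8 in replicate 2 (18.6 ± 5.40, SD, n = 2). Slc25a33, 62.3% identical in protein sequence, had 0.36 and 0.52 TPM from 16 and 13 reads. The carrier above 1 TPM in this pair was thus Slc25a36.

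Cofactor carriers move coenzyme A, NAD, folate and S-adenosylmethionine across mitochondrial or peroxisomal membranes. Of 8 listed members, 7 were detected. Slc25a51, the NAD carrier, led with 36.1 TPM in replicate 1 and 33.4 in replicate 2 (34.7 ± 1.92, SD, n = 2). Slc25a17, which works in the peroxisome membrane and carries coenzyme A and related cofactors, followed with 31.0 and 29.1 TPM (30.1 ± 1.39). Both varied little between the libraries, and their ranges did not overlap. Their order turned with the length used: a coding transcript of 718 bases held 45.4% and 35.6% of the TPM of Slc25a51 on 12.6% and 8.09% of its reads. By CPM per kilobase of the longest coding transcript, Slc25a17 stood at 28.0 and 27.4 and Slc25a51 at 18.3 and 21.5. Slc25a42, which carries coenzyme A, had 8.10 and 16.9 TPM (12.5 ± 6.21). Slc25a32, known for folate and flavin, had 4.52 and 2.74 TPM (3.63 ± 1.26), and Slc25a16, tied to coenzyme A, had 3.62 and 3.11 (3.37 ± 0.361). Slc25a47, a carrier known from liver, had 1.91 and 3.95 TPM (2.93 ± 1.44) from 71 and 83 reads, while the hepatocyte markers Alb, Ttr, Apoa2 and Cyp2e1 had 0 reads in both libraries. Slc25a26, the S-adenosylmethionine carrier, had 0.62 and 1.29 TPM from 28 and 33 reads, so 1 TPM was passed in replicate 2 only.

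All 5 carboxylate and carnitine carriers were detected. Slc25a1, which exports citrate for acetyl-CoA in the cytosol, was the highest with 32.3 TPM in replicate 1 and 59.9 in replicate 2 (46.1 ± 19.6, SD, n = 2). Slc25a11, the oxoglutarate/malate carrier, had 8.66 and 18.7 TPM (13.7 ± 7.13). Slc25a21, the oxoadipate carrier of lysine breakdown, had 14.7 and 12.1 TPM (13.4 ± 1.79). Slc25a11 shares 189 exon bases with Rnf167 on the opposite strand, which had 1116 and 920.53 reads, and Slc25a21 shares 189 with Pax9, which had 202.73 and 159.11. The sources used here do not state whether counting used strand, so reads in the shared parts cannot be told apart. Slc25a20, which brings in acylcarnitines for fat oxidation, had 10.7 and 12.0 TPM (11.4 ± 0.962), and Slc25a10, the dicarboxylate carrier, had 3.82 and 5.91 (4.87 ± 1.48). Slc25a11 overlapped both Slc25a21 and Slc25a20, while Slc25a21 lay just above Slc25a20 in both libraries; all 3 were below Slc25a1 and above Slc25a10. On coding transcripts alone Slc25a1 led in replicate 1 only, with 16.6 TPM against 14.6 for Slc25a21 and 8.45 for Slc25a11. In replicate 2 it had 7.22 against 12.13 and 16.13. Its mean of 11.9 TPM lay below Slc25a21 with 13.4 and Slc25a11 with 12.3. By CPM per kilobase of the longest coding transcript, Slc25a1 led this group in both libraries, with 15.2 and 28.1.

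Of 8 amino acid carriers, 5 were detected. The aspartate/glutamate carriers Slc25a12 and Slc25a13 work in the malate-aspartate shuttle, which moves reducing power from cytosolic NADH into the matrix. Slc25a12 had 17.0 TPM in replicate 1 and 36.5 in replicate 2 (26.7 ± 13.8, SD, n = 2), and Slc25a13 had 7.76 and 4.39 (6.08 ± 2.38). Slc25a12 was the higher of the pair in both libraries, with proteins 77.3% identical. On coding transcripts alone the order turned in replicate 2: Slc25a12 had 1.82 and 1.67 TPM and Slc25a13 0.46 and 2.37. In replicate 1 Slc25a13 had another 3.29 TPM on transcripts absent from GENCODE M21, whose class is not known here. The order on coding transcripts in replicate 1 therefore cannot be settled. Slc25a22, a glutamate carrier, had 6.35 and 17.4 TPM (11.9 ± 7.81), while its relative Slc25a18, 66.8% identical, had 2 and 9 reads. Slc25a44, which carries branched-chain amino acids, had 8.27 and 9.37 TPM (8.82 ± 0.778). Slc25a15, the ornithine carrier of the urea cycle, had 1.95 and 1.29 TPM (1.62 ± 0.467) and was the lowest member detected in both libraries. Its relative Slc25a2, 74.3% identical, had 5 reads in replicate 1 and 0 in replicate 2, and Slc25a29, a carrier of basic amino acids, had 1 and 2.

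The glutathione carriers keep the matrix supplied with the peptide that guards iron-sulfur enzymes and other thiols. Slc25a39, also known for its place in heme synthesis of red cells, had 45.6 TPM in replicate 1 and 75.8 in replicate 2 (60.7 ± 21.4, SD, n = 2). Slc25a40, 52.7% identical, had 14.0 and 4.41 TPM (9.22 ± 6.81). Slc25a39 was above Slc25a40 in both libraries, but the libraries put the distance between them very differently, as the sentences on library ratios below describe. Slc25a46, a member of the outer membrane that acts in the shape and division of mitochondria, had 35.7 and 49.2 TPM (42.5 ± 9.56).

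The uncoupling protein-like members Slc25a30 and Slc25a14, 79.7% identical, had 6.09 and 8.92 TPM (7.51 ± 2.00, SD, n = 2) and 4.42 and 5.07 TPM (4.75 ± 0.460). Slc25a27, the third of this group and known from brain, had 2 reads in replicate 1 and 0 in replicate 2. Of the neuron markers, Syp averaged 1.53 TPM, Map2 0.36, Rbfox3 0.34 and Snap25 0.04. Of the brown fat markers, Elovl3 averaged 0.25 TPM, and Ucp1, Cidea and Adipoq had 0 reads.

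Of the 7 members with no substrate named here, 2 were detected. Slc25a45 had 5.22 TPM in replicate 1 and 5.60 in replicate 2 (5.41 ± 0.269, SD, n = 2), and Slc25a53 had 5.95 and 4.37 (5.16 ± 1.12). Slc25a43 had 0.74 and 1.15 TPM and lay at the 1 TPM line with Slc25a26. Slc25a35 had 0.49 and 0.39 TPM and shares 1151 exon bases with Rangrf on the opposite strand. Slc25a34 had 0 reads in replicate 1 and 1 in replicate 2. Slc25a48 and Slc25a54 had 0 reads in both libraries, where 3 reads, the limit that a count of 0 allows, come to 0.115 CPM in replicate 1 and 0.212 in replicate 2.

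**Figure D2:**
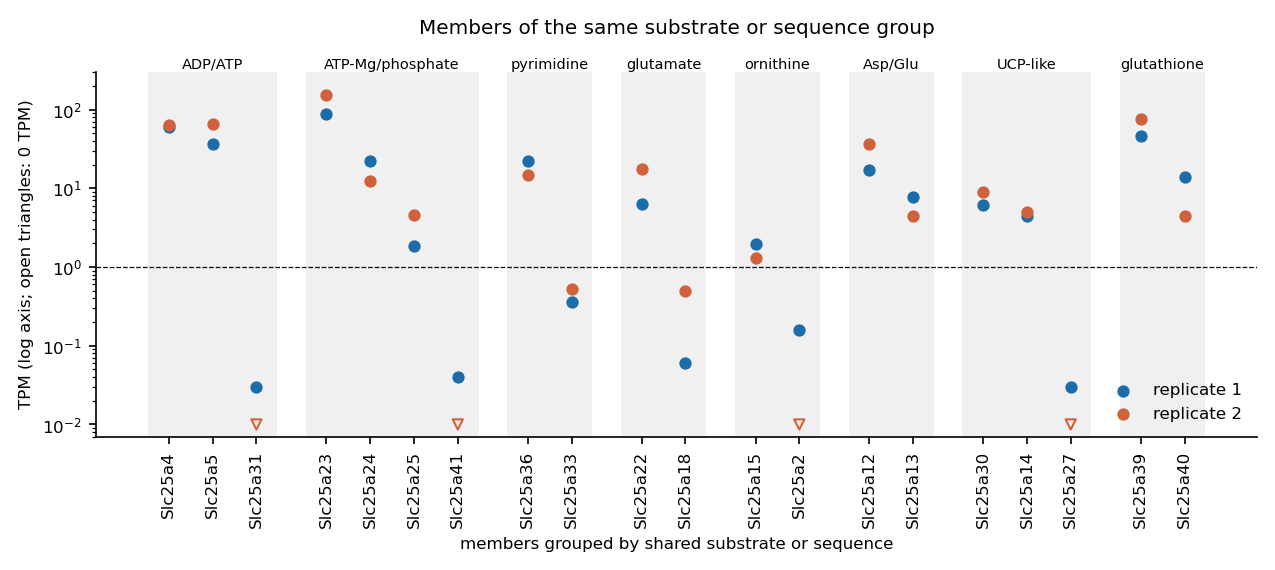
TPM on a log axis of members grouped by substrate or sequence, with replicate 1 in blue and replicate 2 in orange, open triangles for 0 TPM and the dashed line at 1 TPM. In the ADP/ATP, ATP-Mg/phosphate, pyrimidine, glutamate, ornithine and uncoupling protein-like groups 1 member lies below 1 TPM in both libraries and all others lie above it.

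In 6 groups of related carriers the libraries thus held reads for some relatives and few or none for 1: Slc25a31, Slc25a41, Slc25a33, Slc25a18, Slc25a2 and Slc25a27. The Asp/Glu pair and the glutathione pair were detected whole. Neighbours on a chromosome also differed in level. In 4 pairs of members, genes lie within 50 kb of each other. Slc25a41 begins 2056 bases beyond the end of Slc25a23 on the same strand of chromosome 17 and had 0.04 and 0.00 TPM next to 87.0 and 154.6. Slc25a54 lies 6461 bases before Slc25a24 on chromosome 3 and had no reads next to 22.2 and 12.4 TPM. Slc25a43 lies 18448 bases before Slc25a5 on chromosome X, with 0.74 and 1.15 TPM next to 36.4 and 65.4. Slc25a29 and Slc25a47, read away from each other on chromosome 12, have annotated extents divided by 162 bases. They had 0.10 and 0.27 TPM and 1.91 and 3.95 TPM. The promoter taken for Slc25a47 lies inside its extent, at chr12:108850879-108851178. The 162 bases are thus not the distance between the promoters used here. Each pair thus had 1 detected gene, and these pairs were picked out after the levels had been seen.

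By summed TPM the roles ran from the phosphate carrier (196.2 ± 5.98, SD, n = 2) through the ATP-Mg/phosphate group (141.3 ± 42.7), the ADP/ATP group (112.6 ± 23.8) and the cofactor group (100.6 ± 6.05) to the carboxylate and carnitine group (89.4 ± 27.3), the glutathione pair (69.9 ± 14.6) and the amino acid group (55.7 ± 19.9). From the ATP-Mg/phosphate group down to the amino acid group, the ranges of neighbours in this order overlapped. The phosphate carrier lay above all other roles in both libraries. On coding transcripts alone it did not: its 66.0 and 85.7 TPM lay below the ATP-Mg/phosphate group (103.2 and 170.3), the ADP/ATP group (92.0 and 127.6) and the cofactor group (89.1 and 95.2) in both libraries.

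**Figure D3:**
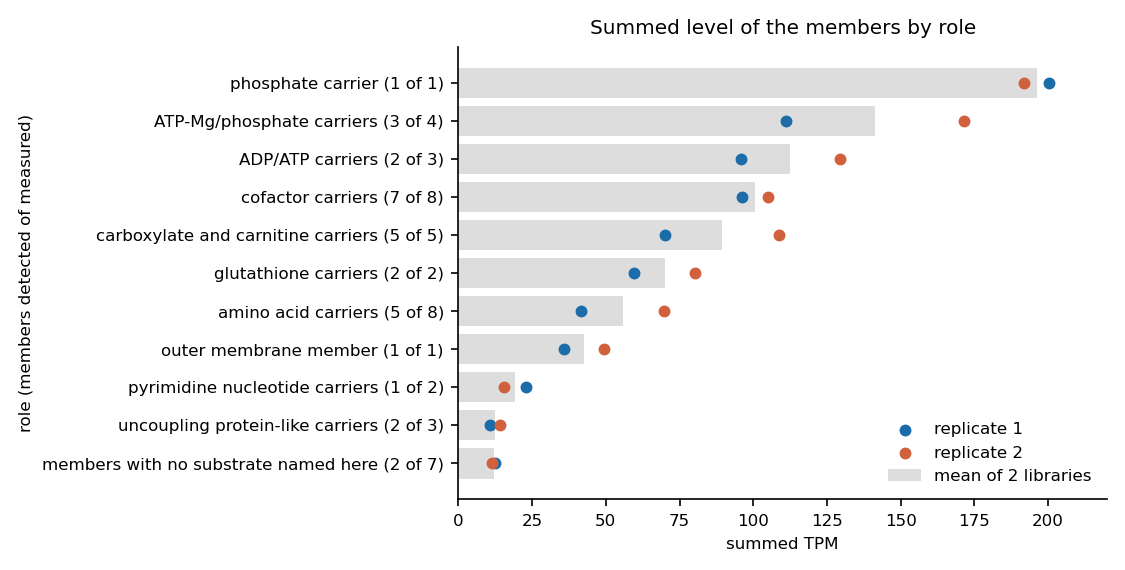
Summed TPM of the members by role, with the mean of both libraries as a grey bar and each library as a point; the labels give members detected of members measured. The phosphate carrier, a single gene, has the highest sum over all transcripts in both libraries (200.4 and 192.0 TPM, of which 66.0 and 85.7 on coding transcripts), and the uncoupling protein-like members and those without a named substrate have the lowest.

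The transcript tables divide each gene's TPM among its annotated transcripts, and for several members much of it lay on transcripts that are not annotated as coding. Transcripts annotated as coding held 72.4% ± 2.96 (SD, n = 2) of the members' TPM and 84.7% ± 0.674 of their reads, next to 74.5% ± 1.73 and 86.4% ± 0.479 for all nuclear protein-coding genes. Of the 18 members at 10 TPM or more, 6 had 90% or more of their TPM on coding transcripts in both libraries, among them Slc25a4, Slc25a17, Slc25a46 and Slc25a23. Another 2, Slc25a3 and Slc25a12, had under 50% in both.

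For Slc25a3 the share on coding transcripts was 32.9% in replicate 1 and 44.6% in replicate 2. The rest lay mostly on retained-intron transcripts, among them Slc25a3-207 of 682 bases with 32.2% and 42.4% of the gene's TPM. The coding transcript Slc25a3-201 nonetheless held 50.4% and 59.0% of the reads. Counted on coding transcripts alone Slc25a3 had 75.9 TPM and ranked below Slc25a23 with 119.8, and by CPM per kilobase of the longest coding transcript it was again the highest at 127.4. Which of these members is highest thus depended on how short transcripts were treated.

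For Slc25a12 the coding share of TPM was 10.7% in replicate 1 and 4.58% in replicate 2. A transcript annotated for nonsense-mediated decay (Slc25a12-207, 2392 bases) led in replicate 1 with 70.0% of TPM and held 38.6% in replicate 2, where a processed transcript of 994 bases led with 55.9%. On coding transcripts alone Slc25a12 averaged 1.75 TPM in place of 26.7. For Slc25a1 a retained-intron transcript of 816 bases led in both libraries, with 47.6% and 77.1% of TPM, and on coding transcripts the gene averaged 11.9 TPM in place of 46.1. The coding transcript Slc25a1-203 of 689 bases held 36.4% in replicate 1 and 3.21% in replicate 2. Of the TPM of Slc25a1, 51.5% in replicate 1 and 12.1% in replicate 2 was on coding transcripts.

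A leading transcript outside the coding class was thus found in 2 of 18 members (11.1%), against 20.9% of all nuclear protein-coding genes at that level. The leading transcript differed between the libraries in 3 of 18 (16.7%), among them Slc25a39 and Slc25a12, against 24.2% of such genes. In Slc25a39 the coding transcripts Slc25a39-205 (728 bases, 44.6% and 34.7% of TPM) and Slc25a39-201 (1685 bases, 20.6% and 37.8%) changed places. By reads they did not: Slc25a39-201 led in both libraries, with 372.65 against 336.37 and 643.1 against 246.41. Slc25a12-207 likewise led its gene by reads in both, with 676.6 and 452.89. Slc25a42 and Slc25a22 kept 1 leading coding transcript in both libraries, with a mean of 43.7% ± 14.2 and 48.3% ± 20.6 (SD, n = 2) of TPM. Among members under 10 TPM, Slc25a53 had 2.86% and 4.81% of its TPM on coding transcripts, and Slc25a13 had 5.93% and 53.99%. For Slc25a13, transcripts with 51.7% and 8.78% of the reads in replicate 1 are absent from GENCODE M21 and were not counted as coding. On coding transcripts alone 29 members reached 1 TPM in both libraries, without Slc25a53 and Slc25a13.

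**Figure D4:**
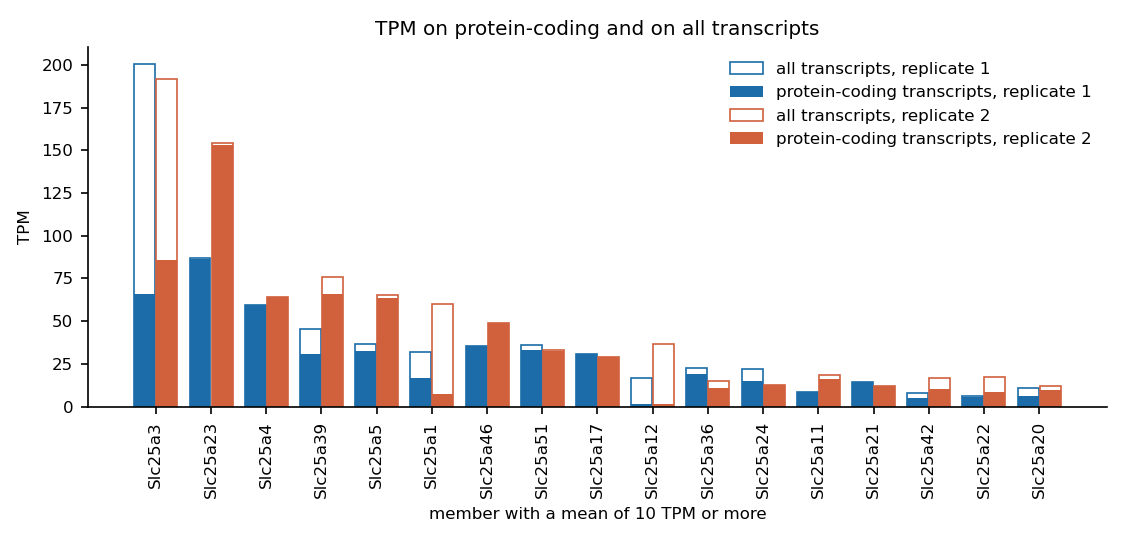
TPM on transcripts annotated as protein-coding (filled bars) and on all transcripts (open bars) for 17 members with a mean of 10 TPM or more, replicate 1 in blue and replicate 2 in orange. The open part is largest for Slc25a3, and Slc25a12 has almost no filled part (1.82 and 1.67 TPM).

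The libraries were compared by the log2 ratio of replicate 2 over replicate 1, from TMM-scaled estimated reads with a prior count of 1, over the 13509 genes with a mean of 10 reads or more. With 1 library against 1, no test exists. Of the 44 members, 35 passed this minimum. Their median ratio was 0.01, as for all 13509 genes, and the median size of the ratio without its sign was 0.46 against 0.68. The 13509 genes are of any class and were not matched to the members in number of reads. A total of 19 members were higher and 16 lower in replicate 2. More than 2-fold higher were 4 of 35 (11.4%), against 15.0% of all genes, and more than 2-fold lower was 1 of 35 (2.86%), against 16.5%.

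The 4 were the dicarboxylate carrier Slc25a10 (88 and 145 reads, log2 ratio 1.34), the glutathione carrier Slc25a39 (881 and 1204 reads, 1.08), the glutamate carrier Slc25a22 (247 and 326 reads, 1.03) and Slc25a25 (104 and 135.2 reads, 1.00, a ratio of 2.0035). The reads of Slc25a25 carry the limit of its overlap with Naif1 given above. The 1 lower was Slc25a40 (866 and 159 reads, log2 ratio -1.81). So the related carriers Slc25a39 and Slc25a40 differed in opposite directions between the libraries. Without the minimum on reads 6 members were higher and 3 lower, where 9.99% and 10.6% of all 43346 genes were, all 4 added members having 9 reads or fewer in each library. Scaled by total counts, 7 members were higher and 1 lower, where 22.4% and 11.6% of all genes were, and from TPM with a pseudocount of 0.1 they were 6 and 1, where 21.2% and 12.5% were.

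The ratio followed the GC content of the transcript. Over the 35 members Spearman's rho was 0.83 and Pearson's r 0.79, and rho was 0.78 over the 8893 protein-coding genes that averaged 100 reads or more. These are descriptions of 1 pair of libraries that all members share. Grouped by GC content, the 8 members under 45% had a median of -0.67 on the log2 scale, the 19 between 45% and 55% had 0.01, and the 8 over 55% had 0.85. For the protein-coding genes that averaged 100 reads or more, the medians in these classes were -0.92, -0.04 and 0.85. The members needed a mean of only 10 reads. Slc25a40 has 39.3% GC, while Slc25a39 has 57.9%, Slc25a22 58.2% and Slc25a10 59.1%.

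With the GC trend of protein-coding genes taken off, the median size of the members' ratios was 0.30, and 1 member was past 2-fold higher and 0 lower, where 7.58% and 8.81% of all genes were. Slc25a39 then stood at 0.24, Slc25a22 at 0.16, Slc25a10 at 0.40, Slc25a25 at 0.48 and Slc25a40 at -0.67. The member past 2-fold was Slc25a46 at 1.31: at 40.7% GC the trend gave -1.03, and its measured ratio was 0.27. Slc25a3, at 46.2% GC, went from -0.04 to 0.47. The part that GC content plays in the differences between these libraries was not tested beyond this.

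**Figure D5:**
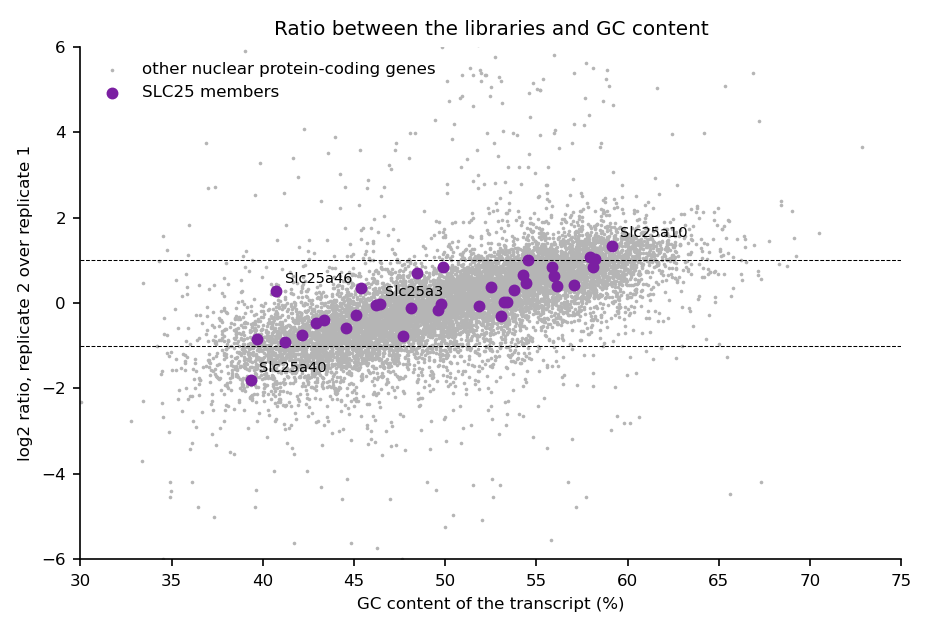
Log2 ratio of replicate 2 over replicate 1 against the GC content of the transcript in percent, for the 35 members with a mean of 10 reads or more (purple) and 11266 other nuclear protein-coding genes (grey, another 22 lie outside the axes); dashed lines mark 2-fold. The members lie along the slope of the other genes, with Slc25a40 at the low end, Slc25a10 at the high end and Slc25a46 above the slope.

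Proteins translated from GENCODE M21 show what the members share beyond their names. The 44 proteins have 265 to 677 residues with a median of 318, and the longest are Slc25a12 with 677 and Slc25a13 with 676. The signature proline, any residue, acidic residue, any pair of residues, basic residue was found 3 times in 25 proteins, 2 times in 11, 1 time in 5 and not at all in 3. The 3 without it were Slc25a46, Slc25a51 and Slc25a53, and Slc25a17 had 1 match. All 3 were detected over all transcripts, but Slc25a53 had only 0.17 and 0.21 TPM on coding transcripts.

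The members were read beside lists of the genes they work with. Of 6 genes that insert carriers into the inner membrane through TIM22, 6 were detected, with a median of 15.2 TPM. By mean, Timm10b (41.2 in replicate 1 and 153.5 in replicate 2), Timm29 (49.5 and 69.9) and Timm9 (12.0 and 28.0) were the highest, and Agk (8.37 and 8.60) and Timm22 (3.36 and 13.0) the lowest. Of 14 other mitochondrial membrane transporters 12 were detected, also with a median of 15.2 TPM. By mean, Sfxn1 (162.1 and 72.8), which brings in serine, Vdac1 (78.8 and 100.3), a pore of the outer membrane, and Abcb10 (49.1 and 88.6) led, and Sfxn4 (2.13 and 0.88) and Sfxn5 (0.66 and 0.74) were the lowest. Sfxn1 was the highest of these in replicate 1 and below both others in replicate 2. Of 36 enzymes that make or use the solutes of the carriers 33 were detected, with a median of 38.2 TPM. By mean, the ATP synthase subunits Atp5b (802.0 and 500.0) and Atp5a1 (217.5 and 494.1) and the glutathione synthesis gene Gclm (145.3 and 192.8) led, and the urea cycle and arginine genes Otc and Arg2 had 0 reads. Among 8 relatives outside the rule 6 were detected: Ucp2 with a mean of 271.9 TPM, Mtch2 with 90.8 and 35.7 in replicates 1 and 2, and the iron carrier Slc25a37 with 46.5 and 35.9 were the highest by mean, and Ucp3 (0.03 and 0.06) and Ucp1 (0 reads) the lowest. Ucp2 thus stood above Slc25a3 in mean TPM, with 171.4 in replicate 1, below Slc25a3, and 372.4 in replicate 2, above it.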

How the data were processed

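PolyA RNA of MEL cells in 2% DMSO for 5 days was measured in 2 libraries of 1 group. The submitters' file lists name mm10 and GENCODE M4 as assembly and annotation. Aligner, quantifier and strand setting were not given in the sources used here. Expected counts (estimated reads) were deposited unscaled, per the file headers. Per the file headers, the authors also gave each gene a TPM and an FPKM, both scaled for length. Posterior mean TPM was deposited as an estimated signal per gene, per the file headers. Per the file headers, the transcript tables give the authors' percent of each gene's TPM by transcript.

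The members and lists were chosen with earlier results of these data known. Symbols, classes and coordinates came from GENCODE M21 by Ensembl ID (42462 of 43346 genes matched), and 26345 rows that name no gene stayed out of ratios and lists. A short transcript turns few reads into a high TPM. Every member with a mean of at least 1 TPM is named, except 1 that is not reported here and stays in the counts. Of companion and marker lists the 3 highest and 2 lowest are named. Expected counts were rounded and scaled by TMM (edgeR 4.0.16, R 4.3.3), with DESeq2 1.42.0 size factors and total counts as alternatives. A lowess curve of the ratio on GC content (span 0.3, statsmodels 0.14.6) was fitted to protein-coding genes averaging 100 counts or more. The calculation of the ratio was tested on simulated counts, which held no GC trend. Copies of members were sought with BLAST+ 2.17.0, and proteins were aligned with Biopython 1.88. Other steps used Python 3.11.15, pandas 2.3.3, numpy 2.4.6, scipy 1.17.1 and matplotlib 3.10.9. Alternatives covered the unit, the detection threshold, the denominator, the scaling, the prior count and each library alone. Levels on coding transcripts alone, CPM per kilobase and shares without Slc25a3 were added after the data had been seen. Depth was 26149725 and 14149299 estimated reads.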

Additional observations from a re-analysis of the deposited data

How the results depend on the processing

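The median member level of 5.74 TPM moved by less than 1 SD as FPKM or posterior mean, and was 9.88 TPM rescaled to nuclear protein-coding genes, 3.95 on coding transcripts alone and 3.82 as CPM per kilobase. Leaving out 1 library at a time gave 5.34 to 6.02. The count of 31 detected members was 15 at 10 TPM, 21 at 5 TPM, 33 at 0.5 TPM and 35 at 10 expected counts, and 31 to 33 with 1 library left out. The members' share of TPM was 0.0851%, or 0.144% of nuclear protein-coding genes and 0.0655% without Slc25a3, and 0.0756% to 0.0947% with 1 library left out. Their share of reads was 0.139%, or 0.170% of nuclear protein-coding genes, and 0.121% to 0.156% with 1 library left out.

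The median log2 ratio of 0.01 became 0.27 under total counts, 0.19 from TPM and 0.16 with the GC trend removed. The first 2 moved the median of all genes as well, to 0.25 and 0.21. More than 2-fold higher in replicate 2 were 4 members (15.0% of all genes), 7 under total counts (22.4% of all genes), 6 from TPM (21.2%) and 1 with the GC trend removed (7.58%). More than 2-fold lower was 1 (16.5%), with 3 when no minimum was set (10.6%) and 0 with the GC trend removed (8.81%). The split of 19 higher and 16 lower became 25 and 10 under total counts and 22 and 13 from TPM or with the GC trend removed. Slc25a25 fell under the 2-fold line with DESeq2 size factors (0.9977) and a prior count of 5 (0.97). By reads, not TPM, 16 of 18 members kept 1 leading transcript, Slc25a39 and Slc25a12 among them. Slc25a20, which kept its leading transcript by TPM, did not by reads. Its retained-intron transcript Slc25a20-202 led in replicate 1, with 279.45 reads against 270.55 for coding Slc25a20-201. In replicate 2 Slc25a20-201 led with 237.7 against 76.3. None of the 5 members past 2-fold with TMM scaling changed sign under any of these settings.

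Depth limits members with few reads: 7 had 3 reads or fewer in each library. No paired analysis was possible because the study has 1 group. Near-identical copies took few reads (Slc25a5) or almost none (Slc25a3 and Slc25a40).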
